A study of Homo sapiens with 6 samples.

Results

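The 2 human transcripts ENST00000536684 and ENST00000600213 were examined among the 81209 transcripts listed over 5 single-cell nanopore count matrices. They were chosen by identifier because they stood among the most abundant human transcripts, so their levels in human cells are a description. They had been proposed as Humanin-like. Neither identifier was among the 42740 of 46484 human identifiers that matched GENCODE 44, and no table used here paired them with a gene symbol, a position or a sequence, so the name could not be checked and the identifiers are used throughout. Their lengths were therefore unknown. Each value is a count of unique molecular identifiers (UMIs), the random tags that mark single captured molecules, and was not divided by length.

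The labels describe mixtures of the human line JJN3, a plasma cell myeloma line, and the mouse myeloma line written there as 5TGMG1, with no drug treatment named. The capture was by 10X Chromium or by Drop-seq beads in a Nadia encapsulator. One 10X and one Drop-seq library were amplified for 30 PCR cycles, another of each for 35 cycles, and a further Drop-seq library for 25 cycles. On each platform the study describes dividing a PCR product before further cycles. Libraries of the same platform are therefore not taken as separate captures. A sample with sequencing reads and no matrix, the last of 6, was not analysed here. Each group held 1 library, so no comparison was tested. All intervals are exact 95% intervals that cover counting error only. The human and mouse cells were mixed at equal numbers for 10X and with mouse cells in excess for Drop-seq.

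As many of the deepest barcodes as the label names were taken as cells: 2000 in each 10X library, and 1000, 500 and 500 for Drop-seq with rising cycle number. A cell was called human or mouse where at least 90% of its counts came from that species, and mixed otherwise. This gave between 165 and 251 human, 291 and 590 mouse and 26 and 159 mixed cells in the Drop-seq libraries. In 10X it gave 1006 and 911 human, 806 and 881 mouse, and 188 and 208 mixed cells at 30 and 35 cycles. Total counts ran from 494147 to 2311090 per library, and median counts per human cell from 118 to 352. The smallest stored value was 1 at 25 cycles, 3 at 30 and 35 cycles of Drop-seq and 2 for 10X, so a cell with no stored entry is not a cell with no molecule. The libraries at 30 and 35 cycles shared 1541 cell barcodes in 10X and 446 in Drop-seq. The Drop-seq library at 25 cycles shared 454 and 457 with those at 30 and 35 cycles. At most 4 were shared between platforms.

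The human cells of the platforms did not carry the same markers. In 10X, 10 of 10 plasma cell markers had counts, together at 6681 and 4400 human CPM at 30 and 35 cycles, which are counts scaled to 1000000 human counts of the human cells, and 0 of 15 T cell markers did. In Drop-seq only 1 of the 10 plasma cell markers had counts, MZB1 at 74.5 to 130 human CPM. SDC1, TNFRSF17, IRF4 and XBP1 were among those at 0. Of the 15 T cell markers 11, 6 and 7 had counts there, together 3072 to 3560 human CPM. CD247, CD5, ZAP70 and PTCRA were at 0 in every Drop-seq library. CD3E, TRAC, LCK and RAG1 were also at 0 at 30 and 35 cycles, and TRBC2 at 30 cycles. The Drop-seq human cells thus went against the label, and the study's own text names JJN3 in one place and the T cell line Jurkat in another. Platform and human cell type cannot be told apart in any comparison between 10X and Drop-seq.

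Humanin is a short peptide read from an open reading frame inside MT-RNR2, the gene of the large mitochondrial ribosomal RNA. It is known for protecting cells from death in experimental systems. The nuclear genome holds many copies of the mitochondrial DNA, and those of MT-RNR2 form the MTRNR2L family. MT-CO1, the comparison transcript, encodes a catalytic subunit of cytochrome c oxidase and is transcribed from the mitochondrial genome itself.

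RefSeq annotated 13 MTRNR2L loci on hg38, all 13 as pseudogenes, with 77.9 to 95.4% identity to MT-RNR2 over the part of each that aligned, which was 448 to 1561 columns beside the 1559 bases of MT-RNR2. Read with the standard genetic code, the longest open reading frame found in MT-RNR2 from an ATG had 24 codons. The mitochondrial code was not applied. The aligned part of 12 loci covered it, and in 11 of them the start codon and a frame of 24 codons remained. The frame is shown for MT-RNR2 and for the 3 covering loci with at least 90% identity over their aligned part, as the nuclear copies closest to the mitochondrial gene by that measure. Each runs 5′ to 3′ along its own strand, in lower case, with bases that differ from MT-RNR2 in capitals. MT-RNR2 lies at chrM:2633-2707 on the plus strand, MTRNR2L12 at chr3:96617199-96617273 on the minus strand, MTRNR2L8 at chr11:10508152-10508226 on the minus strand and MTRNR2L9 at chr6:61574328-61574402 on the plus strand.
MT-RNR2: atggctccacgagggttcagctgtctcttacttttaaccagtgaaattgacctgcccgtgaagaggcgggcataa
MTRNR2L12: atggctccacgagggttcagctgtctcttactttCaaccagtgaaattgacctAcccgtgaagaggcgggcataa
MTRNR2L8: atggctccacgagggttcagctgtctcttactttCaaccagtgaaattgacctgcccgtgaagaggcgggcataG
MTRNR2L9: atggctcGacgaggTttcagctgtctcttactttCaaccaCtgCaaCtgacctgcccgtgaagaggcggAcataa

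Of 75 bases, 73 were identical in MTRNR2L12 and in MTRNR2L8 and 68 in MTRNR2L9. MTRNR2L1 also had 73, but is not shown because its identity over the aligned part was 88.5%. The frames shown are therefore not all the closest ones within the frame itself. Over all 12 covering loci the number ran from 63 to 73. MTRNR2L2 had the highest identity over its aligned length, but that length did not cover the frame. The tables used here do not say which of these loci, if any, the identifiers belong to. All 13 mitochondrial mRNAs of GENCODE 44 were listed in every matrix. None of the 24 mitochondrial rRNAs and tRNAs was listed in any, including MT-RNR2, so the counts of the pair could not be set beside those of MT-RNR2.

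In human cells the pair ranked higher in 10X than in Drop-seq. ENST00000536684 had 157, 96 and 147 counts in the 25-cycle, 30-cycle and 35-cycle Drop-seq libraries, and 10X gave 1287 and 1649 at 30 and 35 cycles. As CPM, counts scaled to 1000000 counts of the same cells, these were 1286, 1408 and 1540 in Drop-seq, against 7898 and 8240 in 10X, and its rank among human transcripts was 83, 84 and 63, and 15 and 17. The intervals of the 3 Drop-seq libraries overlapped, and those of the 10X libraries lay above them. The Drop-seq levels rested on few cells. Both transcripts together had 352, 219 and 319 counts there, stored in 77 of 251, 24 of 166 and 32 of 165 human cells. The cell with the most held 35, 44 and 56 of them. The intervals cover counting error only and not this spread between cells.

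ENST00000600213 was the more abundant of the pair in human cells of every library. It had 195, 123 and 172 counts in Drop-seq and 1516 and 1962 in 10X, or 1597, 1804 and 1802 and then 9303 and 9804 CPM. It ranked 57, 50 and 51 in Drop-seq, against 12 and 14 in 10X. Its ratio to ENST00000536684 was 1.24 (1.001 to 1.54), 1.28 (0.973 to 1.69) and 1.17 (0.933 to 1.47) in Drop-seq, and 1.18 (1.09 to 1.27) and 1.19 (1.11 to 1.27) in 10X. The interval included a ratio of 1 in Drop-seq at 30 and 35 cycles. In mouse cells the same ratio lay between 0.887 and 1.04, and each interval included 1. In Drop-seq human cells at 25 cycles, 30 of the 195 counts of ENST00000600213 lay in 1 cell with 1 count of ENST00000536684. Each transcript was stored in 58 of those human cells. Of the 39 with both, ENST00000600213 was higher in 11 and ENST00000536684 in 10, so the ratio above 1 there leaned on few cells.

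**Figure D1:**
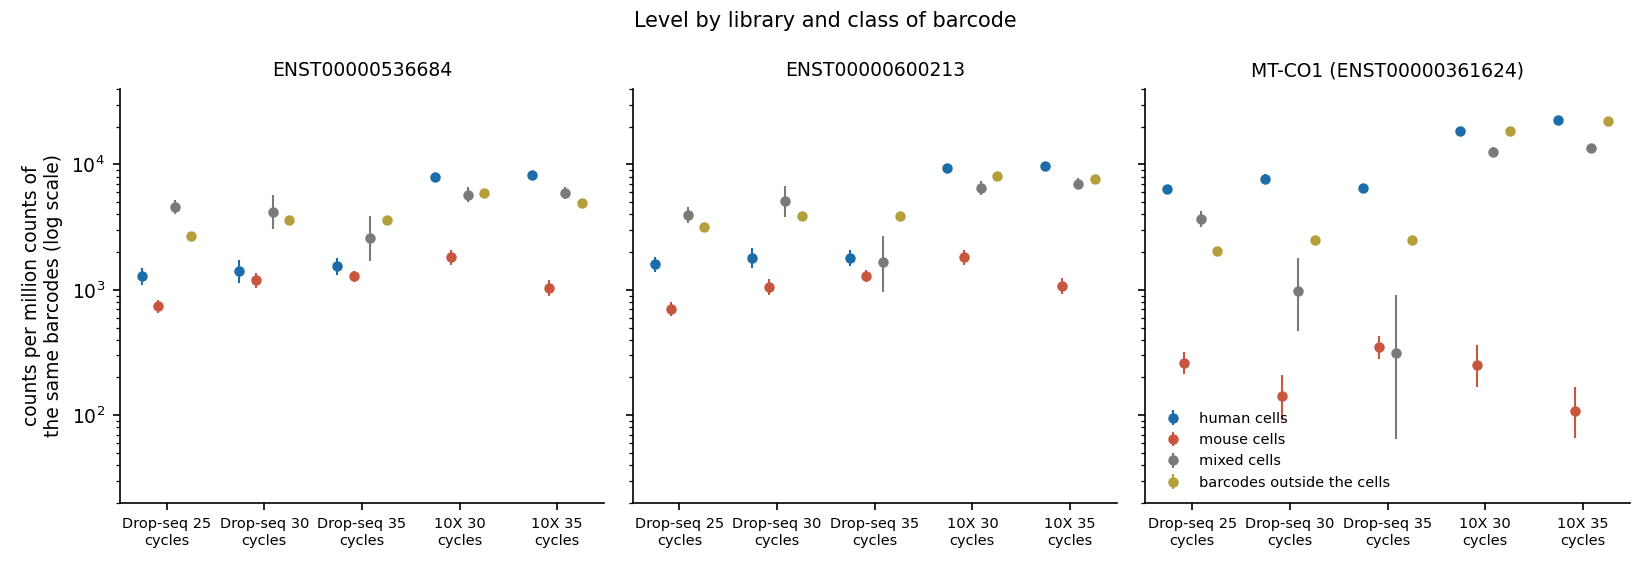
CPM, counts scaled to 1000000 counts of the same barcodes (log scale), for ENST00000536684, ENST00000600213 and MT-CO1 in the 5 libraries, by class of barcode, with 1 point per library and class and bars for exact 95% Poisson intervals. The pair in mouse cells lay between 703 and 1818 CPM, while MT-CO1 in mouse cells lay between 108 and 351 CPM.

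MT-CO1 was the most abundant human transcript in human cells of 4 libraries and the fifth in 10X at 35 cycles, with 773, 521 and 620 counts in Drop-seq and 3031 and 4516 in 10X. For each MT-CO1 count the pair together had 0.455 (0.400 to 0.517), 0.420 (0.357 to 0.493) and 0.514 (0.448 to 0.590) counts in Drop-seq. In 10X it had 0.925 (0.878 to 0.974) at 30 cycles and 0.800 (0.765 to 0.836) at 35 cycles. In Drop-seq the pair's counts lay in few human cells, and the intervals do not cover that spread between cells. The ratios of the 10X libraries lay above those of Drop-seq, where the human cells also carried other markers. With all barcodes in place of the labelled number of cells the order turned, at 1.58, 1.34 and 1.33 for Drop-seq with rising cycle number against 0.801 and 0.638 for 10X. With values below 3 left out, 10X at 35 cycles (0.552) and Drop-seq at 25 cycles (0.540) were about level. Summed over the 13 mitochondrial mRNAs, the pair had 0.119 to 0.162 counts for each mitochondrial mRNA count in human cells of the 5 libraries.

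Mouse cells, which should lack human transcripts, held both transcripts. ENST00000536684 had 278, 212 and 328 counts in mouse cells of the 25-cycle, 30-cycle and 35-cycle Drop-seq libraries, and 10X gave 209 and 191 at 30 and 35 cycles. That was 737, 1196 and 1279 CPM in Drop-seq and 1818 and 1035 in 10X. ENST00000600213 had 265, 188 and 330 counts and then 209 and 198, or 703, 1061 and 1287 CPM and then 1818 and 1073. Mouse cells were defined by holding few human counts, so a level of any human transcript below that of human cells follows from the definition. What the definition did not set was which human transcripts made up those counts.

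The pair made up a larger share of the human counts in mouse cells than in human cells. It gave 3.53%, 17.7% and 15.2% of all human counts in Drop-seq mouse cells, against 0.305%, 0.326% and 0.341% in human cells. In 10X it gave 19.4% and 12.1%, against 1.73% and 1.81%. ENST00000536684 ranked 2, 1 and 3 among human transcripts in Drop-seq mouse cells and 2 and 7 in 10X mouse cells, and ENST00000600213 ranked 3, 3 and 2 and then 2 and 5. MT-CO1 ranked 10, 11 and 11 and then 11 and 18, and its share of human counts was 0.643 to 2.08% in Drop-seq mouse cells and 1.35% and 0.620% in 10X mouse cells.

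The level in mouse cells over that in human cells showed the same for single transcripts. For ENST00000536684 it was 0.573 (0.470 to 0.702), 0.849 (0.664 to 1.09) and 0.831 (0.682 to 1.02) in Drop-seq, and 0.230 (0.198 to 0.267) and 0.126 (0.108 to 0.146) in 10X. For ENST00000600213 it was 0.440 (0.364 to 0.532), 0.588 (0.466 to 0.744) and 0.714 (0.592 to 0.864) in Drop-seq and 0.195 (0.168 to 0.226) and 0.110 (0.0941 to 0.127) in 10X. MT-CO1 had 0.0415, 0.0185 and 0.0540 in Drop-seq, against 0.0136 and 0.00480 in 10X. The median human transcript with at least 100 counts over both classes had 0.0250, 0.00971 and 0.0128 in Drop-seq and 0 in both 10X libraries. Low values were not stored outside the 25-cycle library, which can bring the ratio of a sparse transcript to 0.

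Among those transcripts, 7 of 189 at 25 cycles (3.7%), 6 of 89 at 30 cycles (6.74%) and 8 of 133 at 35 cycles (6.02%) were less than 2-fold lower in Drop-seq mouse cells than in human cells. ENST00000536684 was one of them in all 3 Drop-seq libraries and ENST00000600213 in those of 30 and 35 cycles. In 10X, 5 of 168 (2.98%) and 6 of 195 (3.08%) passed the same limit at 30 and 35 cycles, and neither of the pair did. At most 8 of the transcripts in any library had a higher ratio than the lower of the pair.

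The 13 mitochondrial mRNAs did not have such ratios. The highest of the 13 was 0.158, 0.148 and 0.126 in Drop-seq, against 0.0137 and 0.00888 in 10X, below both of the pair in every library. In mouse cells the pair had 0.896, 2.61 and 1.70 counts for each count of the 13 mRNAs together in Drop-seq, and 3.8 and 3.38 in 10X. Against MT-CO1 alone the pair had 5.49 (4.42 to 6.87), 16.0 (10.7 to 25.0) and 7.31 (5.86 to 9.22) counts in Drop-seq mouse cells and 14.4 (9.89 to 21.8) and 19.5 (12.4 to 32.2) in 10X mouse cells. The intervals of human and mouse cells did not overlap in any of the 5 libraries. MT-CO1 in mouse cells had only 99, 25 and 90 counts in 67, 6 and 21 cells in Drop-seq. In 10X it had 29 and 20 counts in 14 and 9 cells. Low values were not stored outside the 25-cycle library, where the mouse ratio was lowest. The intervals cover neither this nor the spread between cells.

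**Figure D2:**
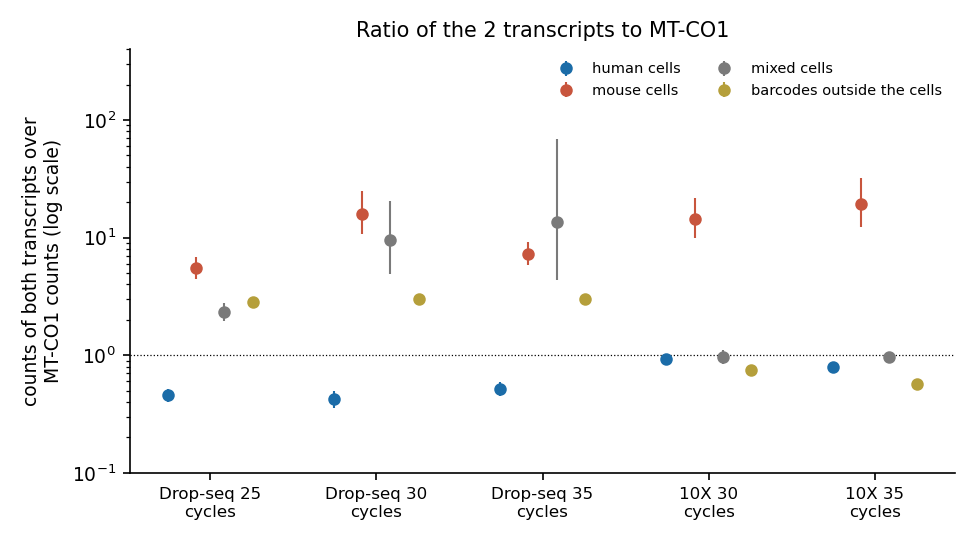
Counts of both transcripts together divided by counts of MT-CO1 (log scale), by library and class of barcode, with bars for exact 95% conditional binomial intervals and a dotted line at a ratio of 1. Human cells lay between 0.420 and 0.925 and mouse cells between 5.49 and 19.5. The mouse values rested on 20 to 99 MT-CO1 counts per library.

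The place of mixed cells depended on the scale. Scaled to all counts, in Drop-seq they held 4605, 4207 and 2605 CPM of ENST00000536684, and 3950, 5088 and 1667 of ENST00000600213. The values at 25 and 30 cycles lay above those of the human and of the mouse cells of the same library, and the intervals at 35 cycles, over 26 cells, were wide. In 10X mixed cells ENST00000536684 had 5756 and 5936 CPM and ENST00000600213 had 6490 and 7017, between the human and the mouse cells. Scaled to human counts, mixed cells lay between human and mouse cells in all 5 libraries, with the pair together at 15255, 18838 and 7727 human CPM in Drop-seq and at 22428 and 24095 in those of 10X. The ratio of the pair to MT-CO1 was 2.31 (1.94 to 2.77), 9.50 (4.95 to 20.5) and 13.7 (4.36 to 69.0) in Drop-seq mixed cells, the last over 3 MT-CO1 counts. In 10X mixed cells it was 0.970 (0.846 to 1.11) and 0.965 (0.869 to 1.07). The interval overlapped that of 10X human cells at 30 cycles and lay above it at 35 cycles.

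The pair itself moved few species calls. With both transcripts left out of the call, mixed cells went from 159 to 153, from 43 to 42 and stayed at 26 in Drop-seq, and went from 188 to 183 and from 208 to 202 in 10X. All the cells that changed class became mouse cells.

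Barcodes outside the cells also held the pair. In Drop-seq these barcodes had 2700, 3614 and 3633 CPM of ENST00000536684 and 3174, 3907 and 3910 of ENST00000600213, above the human cells of the same library. In 10X they had 5901 and 4924 and then 8052 and 7628, below the human cells. These barcodes mix both species, and scaled to human counts the 10X direction turned: ENST00000536684 had 10973 and 8835 human CPM outside the cells against 7946 and 8274 in human cells, and ENST00000600213 had 14975 and 13686 against 9360 and 9844. The Drop-seq direction was the same on both scales. The pair's ratio to MT-CO1 there was 2.86, 2.996 and 3.03 in Drop-seq, against 0.753 and 0.565 in 10X, so in each Drop-seq library it lay between human and mouse cells and in each 10X library below both.

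The share of cells with a stored entry was higher in human than in mouse cells in 10X, while in Drop-seq the intervals of both species overlapped. At least 1 of the pair was stored in 62.2% (59.2 to 65.2%) of human and 18.6% (16.0 to 21.5%) of mouse cells in 10X at 30 cycles, and in 77.0% (74.1 to 79.7%) and 14.2% (11.95 to 16.7%) at 35 cycles. In Drop-seq the shares of human and mouse cells were 30.7% (25.0 to 36.8%) and 30.7% (27.0 to 34.6%) at 25 cycles, 14.5% (9.49 to 20.7%) and 15.5% (11.5 to 20.1%) at 30 cycles, and 19.4% (13.7 to 26.3%) and 22.0% (17.5 to 27.1%) at 35 cycles. At the cells' own depth the share of human cells in Drop-seq was thus not above that of mouse cells. Thinned to equal depth, as given below, the human shares were the higher ones, with overlapping intervals. Where the entries in mouse cells came from was not tested.

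Median depth was close in both species in 10X and higher in mouse than in human cells in each Drop-seq library. Median counts of human and mouse cells were 118 and 117 in the 30-cycle and 171 and 171 in the 35-cycle 10X library, and 271 and 282.5, 243 and 278, and 352 and 417 in Drop-seq at 25, 30 and 35 cycles. After thinning each cell to 200 counts, which left out 798 of 1006 human and 694 of 806 mouse cells in 10X at 30 cycles and 585 of 911 and 563 of 881 at 35 cycles, the shares were 86.5% and 37.5%, and 89.9% and 16.0%. In Drop-seq the thinned shares of human and mouse cells were 24.3% and 19.6%, 16.4% and 14.7%, and 16.4% and 16.3%, with 78 and 188, 56 and 101, and 19 and 26 cells left out. The intervals overlapped between species in each of the 3. MT-CO1 behaved otherwise: at full depth it was stored in 47.4%, 42.8% and 46.1% of Drop-seq human cells and in 11.4%, 2.06% and 6.80% of mouse cells, and in 82.9% and 96.3% of 10X human cells against 1.74% and 1.02% of mouse cells.

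**Figure D3:**
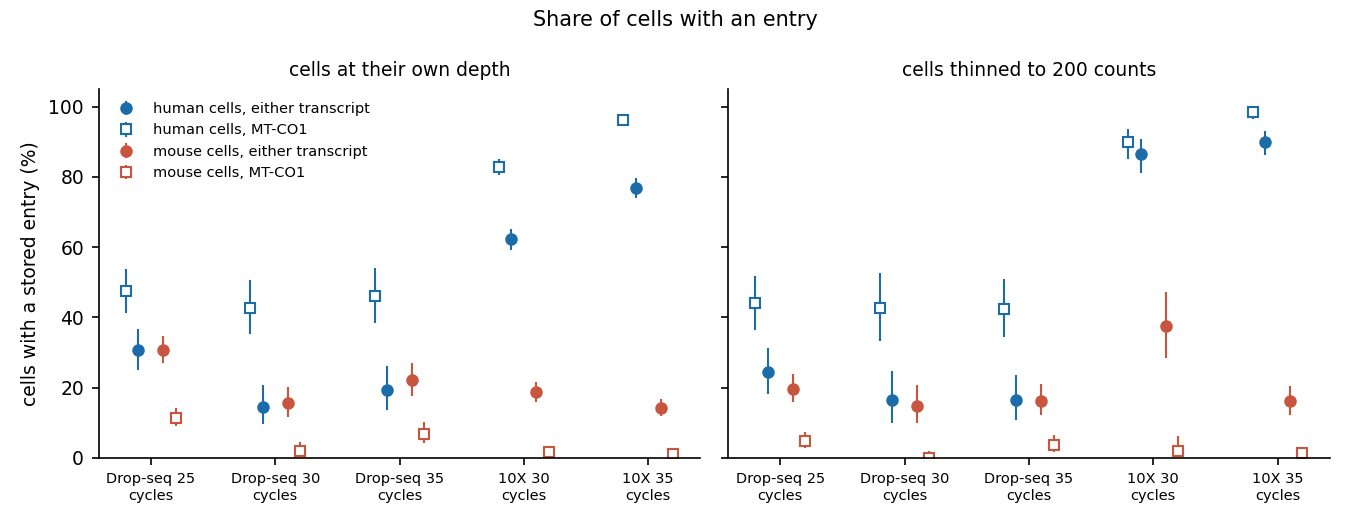
Percent of human and mouse cells with a stored entry of either transcript (filled circles) or of MT-CO1 (open squares), at full depth on the left and after thinning to 200 counts on the right, with exact 95% Clopper-Pearson intervals. The filled circles of human and mouse cells overlapped in Drop-seq, at 30.7% and 30.7% at 25 cycles, and lay apart in 10X, at 77.0% and 14.2% at 35 cycles.

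Within a library the pair was found in the same cells. In 10X at 30 cycles 371 human cells held both, of 468 with ENST00000536684 and 529 with ENST00000600213. Thus 79.3% of cells with ENST00000536684 also held ENST00000600213, against 52.6% of all human cells. At 35 cycles 488 held both, of 577 and 612, or 84.6% against 67.2%. In Drop-seq human cells both were held by 39 of 58 and 58 cells at 25 cycles, 13 of 17 and 20 at 30 cycles and 14 of 23 and 23 at 35 cycles, where the share among cells with the first was 67.2%, 76.5% and 60.9% against 23.1%, 12.05% and 13.9% of all.

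Mouse cells showed the pair together as well. In 10X 38 mouse cells held both, of 94 and 94, at 30 cycles, and 46 of 86 and 85 at 35 cycles, or 40.4% and 53.5% of those with ENST00000536684 against 11.7% and 9.65% of all mouse cells. In Drop-seq 100 of 141 and 140, 22 of 35 and 32, and 42 of 55 and 55 mouse cells held both. In 10X the 2 counts were equal in 178 of the 371 human cells at 30 cycles and in 215 of the 488 at 35 cycles. In mouse cells they were equal in 25 of the 38 and 36 of the 46. No 10X value below 2 was stored, and in mouse cells the median stored count of each transcript was 2. Most of the mouse cells with equal counts held 2 of each. How many equal cells this limit alone would give was not tested, so the equal counts are a description. A single cell held at most 30 counts of either transcript in any of the libraries.

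**Figure D4:**
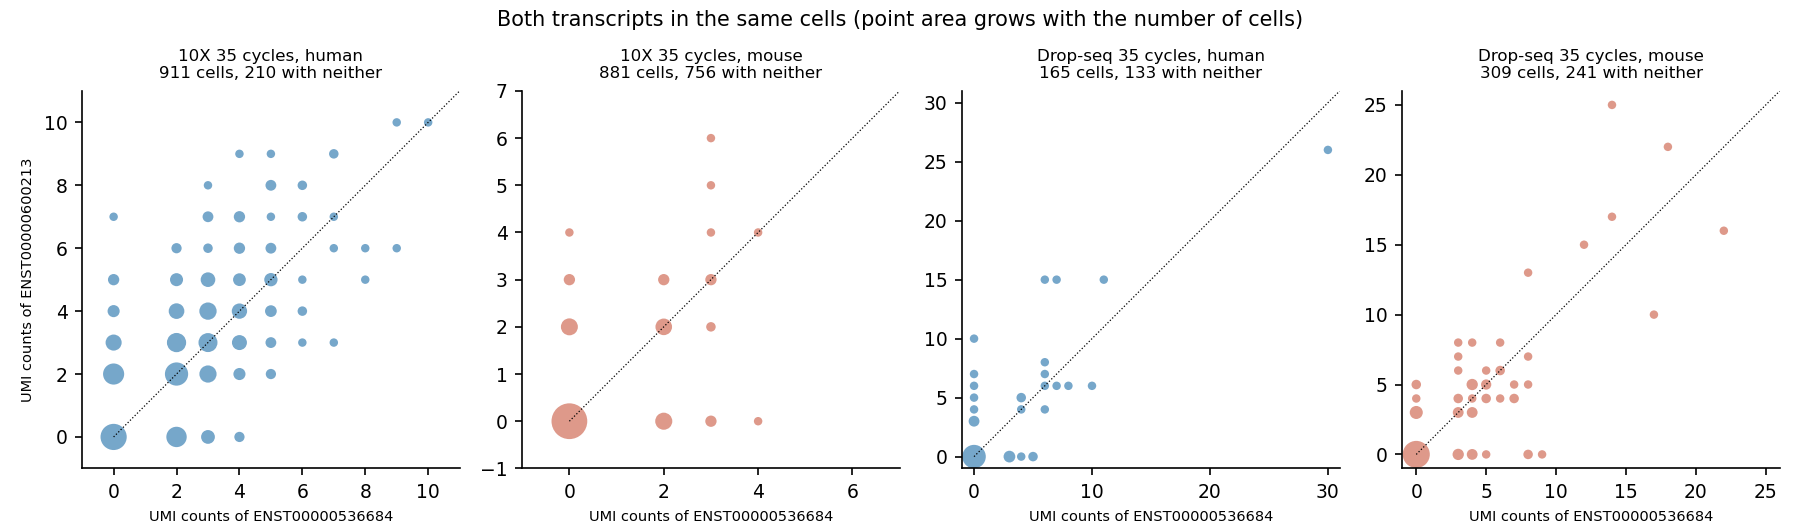
UMI counts of ENST00000536684 (x axis) and ENST00000600213 (y axis) in the same human and mouse cells of the 10X and Drop-seq libraries at 35 cycles, with point area growing with the number of cells and a dotted line of equal counts. In 10X 488 of 911 human cells and 46 of 881 mouse cells lay off both axes, and values of 1 (10X) or of 1 and 2 (Drop-seq) are missing because none were stored.

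Over human cells the pair followed each other more than either followed MT-CO1. Spearman's rho of the shares of a cell's human counts taken by the pair was 0.61, 0.67 and 0.55 over 251, 166 and 165 cells in Drop-seq, and 0.52 and 0.55 over 1006 and 911 cells in 10X. With MT-CO1, ENST00000536684 had a rho of 0.20, 0.09 and 0.10 in Drop-seq, against 0.02 and 0.11 in 10X, and ENST00000600213 had 0.10, 0.03 and 0.09 and then 0.03 and 0.09. These points share a library and cells differ in depth, so the values are a description, and correlations this weak in sparse counts are no finding. Many cells lacked both transcripts of the pair, from 23.1% in 10X at 35 cycles to 85.5% in Drop-seq at 30 cycles, and such ties enter the coefficient.

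Thinned to 200 counts, the rho of the pair was 0.41, 0.58 and 0.43 in Drop-seq, against 0.37 and 0.38 in 10X, and those with MT-CO1 lay between -0.07 and 0.14. Raw counts gave 0.16 to 0.31 with MT-CO1, while the raw counts of MT-CO1 themselves had a rho of 0.38 to 0.49 with the depth of the cell. Human cells with a stored MT-CO1 entry held at least 1 of the pair in 44.5%, 19.7% and 26.3% of cases in Drop-seq, against 18.2%, 10.5% and 13.5% of cells without one. Their median human counts were 358, 363 and 550.5 against 222, 209 and 287. In 10X the shares were 63.9% against 54.1% at 30 cycles, with median human counts of 123 and 102.5, and 77.0% against 76.5% at 35 cycles, with 173 and 136.5, the last over only 34 cells without MT-CO1. The part of depth in these differences was not tested.

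The same cells could be followed across libraries through their barcodes. Because a PCR product was divided before further cycles, an entry held again can stem from the same captured molecule. It is therefore not an independent detection. Of 722 barcodes that were human cells in both 10X libraries, 379 held ENST00000536684 at 30 cycles and 299 of these, or 78.9%, held it again at 35 cycles, against 66.3% of all 722. For ENST00000600213 it was 345 of 430, or 80.2%, against 71.0%. Among 631 shared mouse cells 22 of 76 (28.9%) and 15 of 70 (21.4%) held the transcript again, against 11.7% and 11.1% of all. In Drop-seq 32 of 34 (94.1%) shared mouse cells with ENST00000536684 at 30 cycles held it at 35 cycles, against 18.8% of all 271, and for ENST00000600213 it was 26 of 32 (81.2%) against 18.5%. Among 145 shared human cells 12 of 16 and 15 of 18 held them again, against 14.5% of all for each. From 25 cycles, 28 of 95 (29.5%) shared mouse cells with ENST00000536684 and 25 of 95 (26.3%) with ENST00000600213 held it at 30 cycles, against 12.6% and 11.5% of all. At 35 cycles it was 44 of 95 (46.3%) and 37 of 100 against 19.4% and 18.7%.

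From 30 to 35 cycles the pair changed little in human CPM of human cells. In 10X ENST00000536684 went from 7946 to 8274, a log2 ratio of 0.06 (-0.05 to 0.16), and ENST00000600213 from 9360 to 9844, a log2 ratio of 0.07 (-0.02 to 0.17). Both intervals included 0. Neither passed a change of 2-fold, which 107 of 381 human transcripts did in 10X (28.1%), 29 higher and 78 lower.

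All 12 mitochondrial mRNAs with at least 100 counts over the 10X pair had log2 ratios above both (11 of 12 with the number of cells halved), from 0.10 for MT-ND4, a subunit of complex I, to 0.74 for MT-CYB, a subunit of complex III. MT-CO1 had 0.28 (0.21 to 0.34), and the median of the 12 was 0.30. None of them passed 2-fold, and the intervals of MT-ND4, MT-ND4L, MT-ND5 and MT-ATP6 overlapped those of the pair. The median of all 381 was 0.06, beside which the pair's values lay.

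In Drop-seq ENST00000536684 went from 1430 to 1572 human CPM, a log2 ratio of 0.13 (-0.24 to 0.52), and ENST00000600213 from 1832 to 1840, a log2 ratio of 0.00 (-0.34 to 0.35). MT-CO1 fell from 7759 to 6631, at -0.23 (-0.40 to -0.06). Of 243 human transcripts 0 passed 2-fold (0.0%), and the median of the 243 was -0.11. The 9 mitochondrial mRNAs with enough counts ran from -0.23 to 0.17. Each comparison is of 1 library with 1 other, and the library pair shares most of its cell barcodes.

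**Figure D5:**
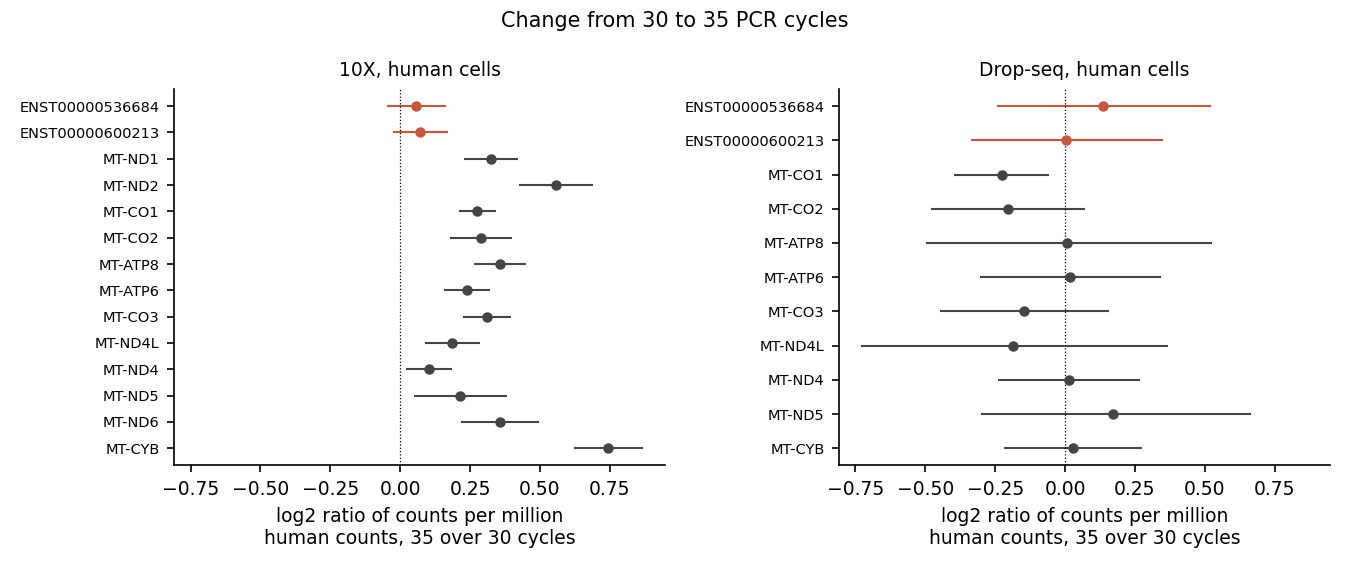
Log2 ratio of human CPM in human cells, 35 over 30 cycles, for the pair (red) and the mitochondrial mRNAs with at least 100 counts (grey), in 10X and Drop-seq, with exact 95% conditional binomial intervals and a dotted line at 0. In 10X the points of all 12 mitochondrial mRNAs lay to the right of the pair, with overlapping intervals for MT-ND4, MT-ND4L, MT-ND5 and MT-ATP6.

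Over the 5 libraries each transcript of the pair was the other's nearest among 134 human transcripts with at least 500 counts in human cells. The measure was the root mean square difference of log2 human CPM, centred on the mean of the libraries, and it was 0.05 between the pair. For ENST00000536684 the next were MT-CO3 at 0.12, MT-ATP6 at 0.15, MT-ND4 at 0.21 and the ribosomal protein transcript RPL6 (ENST00000424576) at 0.22. The same 4 followed for ENST00000600213, at 0.09, 0.16, 0.18 and 0.19. MT-CO3 encodes another core subunit of cytochrome c oxidase and MT-ATP6 a subunit of the ATP synthase. MT-CO1 stood at rank 23 and 22, at 0.47 and 0.44. The measure rests on 5 points, 3 from Drop-seq and 2 from 10X, and the pair differed most between the platforms.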

How the data were processed

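UMI count matrices of 5 libraries were used. Per the study's methods, the authors called bases with Guppy, mapped reads to hg38 and mm10 transcripts with minimap2, and counted UMIs with UMI-tools for 10X. Whether the deposited Drop-seq counts came from UMI-tools or from the homotrimer correction is not given in the sources used here. The deposited counts are raw whole numbers per barcode and transcript with no normalization, and the smallest stored values differ between libraries, which removes low entries unequally.

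Cells, species and levels were computed as described with the results. The 35 over 30 cycle ratio used a pseudocount of 0.5 counts, a minimum of 100 counts over both libraries and a 2-fold limit. Its arithmetic was checked on simulated pooled Poisson counts with large planted changes. The simulation had no smallest stored value and no variation between cells or libraries, so it cannot show how reliable the calls are in these data. Doublets were not called, since mixed cells were kept as a class of their own. Sequences were aligned on hg38 with Biopython 1.88, and the frame was read on to its own stop codon in the standard genetic code. Other steps used Python 3.11.15, numpy 2.4.6, pandas 2.3.3 and scipy 1.17.1.

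The named transcripts were the pair, MT-CO1, the MTRNR2L loci, the mitochondrial RNAs and the 5 nearest transcripts of each. The members and lists were chosen with earlier results of these data known. Alternatives were other choices of cells, purity, species call, smallest value, scaling, count minimum, pseudocount and depth. Taking all barcodes was added after seeing the data. Each group held 1 library, so p-values were not computed.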

Additional observations from a re-analysis of the deposited data

Results flagged for a closer look

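Some changes from 30 to 35 cycles went in opposite directions on the platforms, with 1 library in each group, and the difference was not tested. The log2 change of ENST00000361624 (MT-CO1) in human CPM (counts scaled to 1000000 human counts) of human cells was 0.276 in 10X and -0.227 in Drop-seq. In mouse cells, as CPM of all counts, the log2 change of ENST00000536684 was -0.813 in 10X and 0.0974 in Drop-seq, that of ENST00000600213 was -0.761 and 0.279, and that of both together was -0.786 and 0.186. The ratio to MT-CO1 in human cells changed on the log2 scale by -0.218 in 10X and 0.364 in Drop-seq for ENST00000536684, by -0.203 and 0.233 for ENST00000600213, and by -0.21 and 0.292 for both together. Not all of these opposite directions held under the alternatives. For both together in mouse cells they were lost with values below 3 left out, at 0.133 in 10X and 0.186 in Drop-seq, and at a purity of 80%, at -0.711 and -0.00836. For ENST00000600213 in mouse cells they were lost with values below 3 left out, at 0.495 and 0.279, and for ENST00000536684 at a purity of 80%, at -0.768 and -0.0742. With all barcodes the ratio to MT-CO1 lost them for both together, at -0.329 and -0.00862, and for ENST00000536684, at -0.388 and -0.0423. The human cells of the platforms also differed in their markers.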

How the results depend on the processing

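Each group held 1 library and no result came from a test, so the alternatives were read against the counting interval of the value, and counts of transcripts against 1.5 times. Of 994 alternative values 694 stayed within and 300 moved, with 0 called values changing sign. That 0 shows nothing about direction, since levels, shares, ratios and counts cannot change sign. No change of the pair or of MT-CO1 with cycle number was called either. Among values that were not called, the log2 ratio of the pair and its rho with MT-CO1 did change sign under some alternatives, as given below. No paired analysis was possible because each group held 1 library. The values below are for both transcripts together, as human CPM in human cells and CPM of all counts in mouse cells, the cause of each move was not tested, and libraries are named by platform and cycles. Depth limits the Drop-seq human cells, where the pair had 219 to 352 counts, and the Drop-seq mixed cells at 30 and 35 cycles, where it had 95 and 41.

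Taking all barcodes with at least 100 counts gave 16660 CPM in 10X 30 human cells, a ratio to MT-CO1 of 0.990 there and a 10X log2 ratio of 0.157. Shares with an entry became 24.5% of human and 22.8% of mouse cells in Drop-seq 25, 15.0% of mouse cells in Drop-seq 35, 69.6% of human, 22.2% of mouse and 63.0% of mixed cells in 10X 30, and 73.7% of human cells in 10X 35. Halving the number of cells gave 16150 and 17150 CPM and ratios to MT-CO1 of 1.01 and 0.847 in 10X 30 and 35, and a ratio within the pair of 1.27 in 10X 35. Shares of human, mouse and mixed cells became 42.1%, 43.6% and 62.5% in Drop-seq 25, 21.8%, 25.9% and 40.0% in Drop-seq 30, then 75.2%, 25.6% and 67.5% in 10X 30, and those of human and mouse cells 28.4% and 34.3% in Drop-seq 35, then 88.4% and 18.1% in 10X 35. Barcodes that were cells in both libraries gave a ratio to MT-CO1 of 0.974 in 10X 30 and shares of human cells of 69.1% and 80.3% in 10X 30 and 35.

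A purity of 80% gave, in Drop-seq 25, 3980 CPM in human cells, a ratio to MT-CO1 of 0.588 and 1699 CPM in mouse cells, and in mouse cells 2595 in Drop-seq 30 and 2337 in 10X 35, with 1 transcript past 2-fold in Drop-seq. A purity of 95% gave, in Drop-seq 25, 2063 CPM in human cells, a ratio to MT-CO1 of 0.335 and a ratio within the pair of 1.74, with 3 transcripts past 2-fold in Drop-seq. Mouse cells then held 973.5, 1680 and 1777 CPM in Drop-seq and 2373 and 1608 in 10X, and shares were 25.3% of mouse cells in Drop-seq 25, 13.8% of mouse cells in 10X 30 (0.222 times that of human cells), and 11.8% of mouse and 61.2% of mixed cells in 10X 35. Calling the species without the pair and the mitochondrial transcripts gave 1649 CPM in Drop-seq 25 mouse cells.

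Leaving out values below 3 gave 4587, 35800 and 28750 CPM in human cells of Drop-seq 25, 10X 30 and 10X 35, ratios to MT-CO1 of 0.540, 0.700 and 0.552, and 1315, 986 and 1081 CPM in mouse cells. Shares of human, mouse and mixed cells fell to 9.80%, 6.69% and 17.9% in Drop-seq 25, 31.5%, 1.30% and 32.7% in 10X 30, and 40.5%, 2.21% and 41.2% in 10X 35, so that the mouse share was 0.682, 0.0414 and 0.0544 times the human share. It also gave a rho with MT-CO1 of 0.0366 in Drop-seq 25 and -0.0174 in 10X 35, a ratio within the pair of 1.41 in 10X 35, 44 transcripts past 2-fold in 10X and a 10X log2 ratio of -0.317. The direction of that small ratio therefore depended on low values, and on scaling by all counts in all cells, which gave -0.128.

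A minimum of 50 counts gave 228 transcripts past 2-fold in 10X and 11 in Drop-seq, and one of 200 counts gave 48 in 10X, against 107 and 0. Cells with at least 200 counts gave a rho with MT-CO1 of 0.130 in 10X 30. Raw counts gave a rho within the pair of 0.607 and 0.636 and with MT-CO1 of 0.245 and 0.315 in 10X 30 and 35. Thinning to 200 counts gave shares of 24.3% of human and 19.6% of mouse cells in Drop-seq 25, 16.3% of mouse cells in Drop-seq 35, 86.5%, 37.5% and 86.8% of human, mouse and mixed cells in 10X 30 (the mouse share 0.433 times the human share), and 89.9% of human cells in 10X 35. Scaling without mitochondrial transcripts and the pair gave 19760 and 21320 CPM in 10X 30 and 35 human cells.

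All barcodes, an alternative chosen after seeing the data, gave 9426, 10130 and 9849 CPM in human barcodes of Drop-seq 25, 30 and 35 and 19570 and 19430 in 10X 30 and 35. Ratios to MT-CO1 were then 1.58, 1.34 and 1.33, and 0.801 and 0.638, so the order of the platforms turned, and levels in mouse barcodes were 720.9, 1250 and 1358, and 2690 and 1668 CPM. The 10X log2 ratio was -0.0101.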
